A study of Arabidopsis thaliana with 45 samples.

Results

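The first true leaves of Arabidopsis thaliana, accession Col-0, were compared at 30 days (D30) and 23 days (D23) in libraries labelled as short days, that is with 8 h of light per day. The comparison rests on 6 of the 45 RNA sequencing libraries of the series, 3 at D30 and 3 at D23, chosen by those labels. Other pairs of groups serve as a yardstick, Col-0 grown with 16 h of light per day (long days) at D30 and D23, and libraries labelled tcx5/6, also long days, at D30 and D23, with 3 libraries in each group. Col-0 is the common laboratory wild type, and tcx5/6 is a line labelled for TCX5 and TCX6, which are CXC-domain proteins. No group received any other treatment that the labels state. The age is given in units written DAG, which the labels do not spell out. They do not say whether the 3 libraries of a group came from separate plants, so the spread behind the p-values, which is pooled within 15 groups of 45 libraries, may be technical.

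A rosette leaf first expands, then works as a source of sugar, and is at last dismantled in senescence, when chlorophyll and Rubisco are broken down and their nitrogen is exported. Short days slow growth and delay flowering in Arabidopsis. A separate and much faster programme is set off within minutes by touch, wounding, cold or microbial signals: calcium sensors, WRKY, ERF and zinc-finger factors and JAZ repressors are transcribed in a burst known as the immediate-early response.

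Values are normalised read counts, which the authors obtained by dividing the reads of each gene by 1 size factor per library. Reads in genes came to 23078714 to 27855700 per library at D30 and 24922667 to 30151167 at D23. Some checks of the labels gave levels that the day lengths or genotypes do not account for, and whether any label is wrong was not tested. TCX5 lay at 54.1 to 216 in the 15 libraries labelled short days, against 271 to 525 in 15 long-day Col-0 libraries, and at 231 to 522 in the 15 libraries labelled tcx5/6. TCX6 lay at 219 to 2200.0 in libraries labelled short days and 0 to 142 in tcx5/6 libraries, against 15.7 to 418 in long-day Col-0 libraries. The order of the last 2 depended on age. At D13 TCX6 was higher in tcx5/6 (65.9 to 142) than in long-day Col-0 (16.6 to 33.8). At D23 they overlapped (5.47 to 50.5 against 29.5 to 41.6), and at D30 tcx5/6 was lower (37.7 to 50.4 against 69.8 to 94.9). QQS, an orphan gene linked to leaf starch, had 0 reads in every library labelled short days, against 252 to 1051 in long-day Col-0 libraries. The floral signal gene FT, which long days induce, had 3 or more reads in 11 of 15 short-day and, although their label is long days too, in just 2 of 15 tcx5/6 libraries, against 14 of 15 in long-day Col-0 libraries. Of the DNA methylation genes checked, CMT3 lay at 968 to 2832 in libraries labelled short days, against 33.3 to 600 in long-day Col-0 libraries. DDM1 lay at 337 to 888, against 16.2 to 324, while the MET1 and ROS1 ranges overlapped. Whether day length accounts for these levels was not tested. All 6 libraries compared here carry the short-day label, so no result can be given without such libraries, and groups are called by their labels throughout.

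The spread within the short-day triplicates also stood apart. The variance between the 3 libraries, as a multiple of counting noise, was 4.15, 4.23, 4.56 and 5.85 at D30 for genes of 20 to 100, 100 to 1000, 1000 to 10000 and over 10000 mean reads. In the same 4 bands it was 5.52, 5.75, 5.71 and 9.60 at D23. Long-day Col-0 libraries had 4.68, 6.77, 19.1 and 393 at D30 and 3.07, 3.60, 7.28 and 123 at D23. The excess thus changed little with depth in the short-day triplicates, apart from the top band at D23, and climbed with depth in the long-day ones. Because the short-day libraries may be repeats of 1 sample, counts of genes called are given a second time with every short-day triplicate taken as 1 library, an alternative added after seeing the data. Each triplicate is then replaced by its mean and gives no spread of its own. The spread in that fit comes only from the long-day Col-0 and tcx5/6 groups, so the wide tcx5/6 triplicates weigh on it. A call kept or lost there thus does not measure variation among short-day plants.

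**Figure D1:**
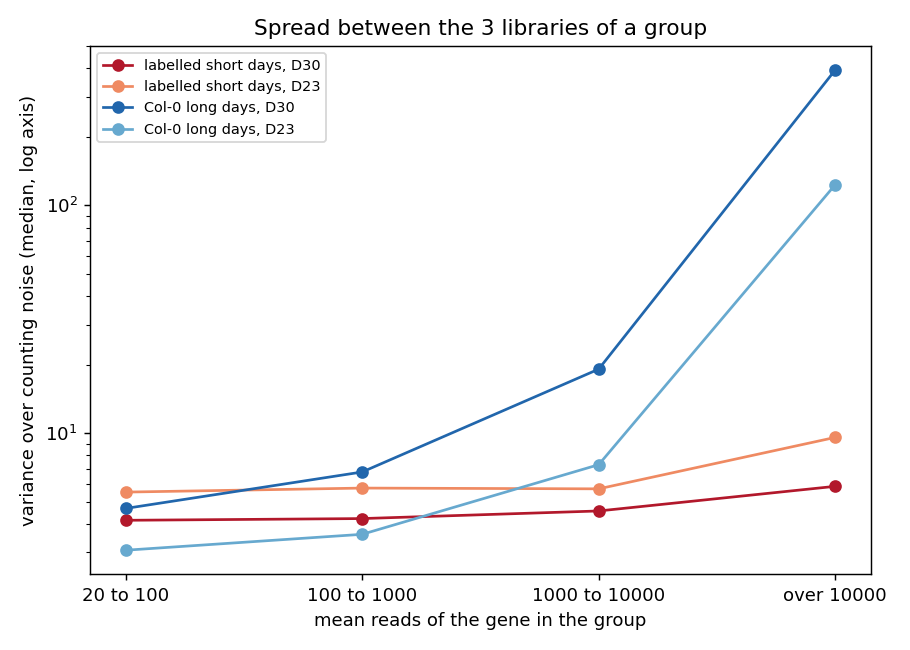
Median variance between the 3 libraries of a group, divided by the variance that counting alone gives, on a log axis, for genes in 4 bands of mean reads on the x axis. The D30 short-day triplicate runs from 4.15 to 5.85 across the bands and the D30 long-day one from 4.68 to 393.

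Of lists of genes with a shared role, all 14 immediate-early genes tested and 15 of 19 genes of salicylic acid and immunity were higher at D30 than at D23, beside 16.5% of all genes. Lower at D30 were 26 of 30 light-harvesting and photosystem genes and 7 of 10 wax genes, beside 11.9% of all genes. Genes of the Calvin cycle, chlorophyll breakdown, autophagy and cell division mostly did not pass the test. Of 20602 genes with a value of 10 or more in at least 3 of the 6 libraries, 5849 were called by limma at a Benjamini-Hochberg adjusted p under 0.05, which is 28.4%. They were 3403 higher (16.5%) and 2446 lower (11.9%). At least 2-fold changes on the log2(value + 1) scale were called for 1991 higher genes (9.66%) and 1049 lower genes (5.09%). In 12766 genes (62%) the 3 D30 values lay all above or all below the 3 D23 values. With each short-day triplicate as 1 library, 966 genes were called (4.69%), 715 higher (3.47%) and 251 lower (1.22%), and the 2-fold threshold was passed by 666 higher and 222 lower genes. The spread pooled in the fit matters as well, since a fit of only the 6 libraries called 11639 genes. The split depends on scaling: higher genes were 58.2% of calls as deposited and 38.3% after quantile normalisation, which called 3076 higher and 4957 lower and moved the median change of all genes to -0.167 (log2). All log2 changes below are D30 minus D23 on log2(value + 1), a scale that understates the change of genes with few reads. All adjusted p are from limma, fitted on 45 libraries, unless another fit is named. For every list, the background of members called in the D30 change is 16.5% of all genes higher and 11.9% lower. Means are given ± SD with n = 3, and values of 3 libraries stand in the order of their replicate numbers.

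The immediate-early list moved furthest. All 14 of its 14 genes rose, with log2 changes from 3.21 to 11.66 and a median of 6.09, beside a median of 0.00290 over all genes tested. With each triplicate as 1 library 8 of the 14 were called higher. Together these genes held 0.795 to 0.797% of all values at D30, against 0.0179 to 0.0186% at D23. This list and the others were chosen with earlier results of these data known.

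PHI-1, which encodes a protein of the EXORDIUM family, had normalised counts of 6121, 6430.5 and 6086 in the D30 libraries, against 0, 1.72 and 1.62 in the D23 libraries. The D23 values come from 4 reads over 3 libraries, so the log2 change of 11.66 ± 0.86 (SE) is uncertain in size (adjusted p = 1.15e-12). WRKY40, a transcription factor that restrains defence and abscisic acid responses, stood at 19452, 19214 and 19541 in the D30 libraries, against 25.6, 46.6 and 30.8 in the D23 libraries. Its D30 libraries lay close together and far above every D23 library, with a log2 change of 9.15 ± 0.92 (SE) and an adjusted p of 1.09e-09. The touch gene XTH22 (TCH4), a xyloglucan-modifying wall enzyme, had 19882, 19836 and 19183 in the D30 libraries, against 46.9, 51.7 and 30.8 in the D23 libraries. The groups were again widely separated, with a log2 change of 8.83 ± 0.65 (SE) and an adjusted p of 9.48e-13. CML37, a calmodulin-like calcium sensor, had 4650.2, 4304 and 4313 in the D30 libraries, against 2.13, 11.2 and 12.96 in the D23 libraries. The log2 change was 9.09 ± 1.08 (SE) (adjusted p = 3.21e-08), and no D23 value came near the D30 values. PHI-1, WRKY40, XTH22 and CML37 were called also with each triplicate as 1 library, with adjusted p of 3.74e-04, 0.00569, 3.86e-04 and 0.0145.

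The other members were higher as well. ZAT10, ZAT11 and ZAT12 encode zinc-finger repressors of stress responses. ZAT12 averaged 7510.0 ± 271 at D30 against 53.6 ± 19.8 at D23, and ZAT10 averaged 24073 ± 491 at D30 against 396 ± 53.2 at D23. The tandem zinc-finger gene SZF1 averaged 44900.4 ± 219.8 at D30 against 458 ± 65.02 at D23, the highest D30 mean of the list. TCH2 and TCH3, calmodulin-like genes named for their touch response, rose by 5.22 and 4.73 on the log2 scale. CZF1 had the smallest change, 3.21, with 10929.7 ± 354 at D30 against 1178 ± 24.5 at D23. D23 was the lowest of the 5 short-day group means for 10 of the 14 genes, and the D40 mean was above D23 for 14. WRKY40, for example, averaged 109 at D13, 598 at D18, 34.3 at D23, 19402 at D30 and 26041 at D40. XTH22 averaged 1366 at D13, 4050.1 at D18, 43.1 at D23, 19634 at D30 and 52535 at D40. Both genes were thus detected at D13 and D18, lowest at D23 and high at D30 and D40.

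**Figure D2:**
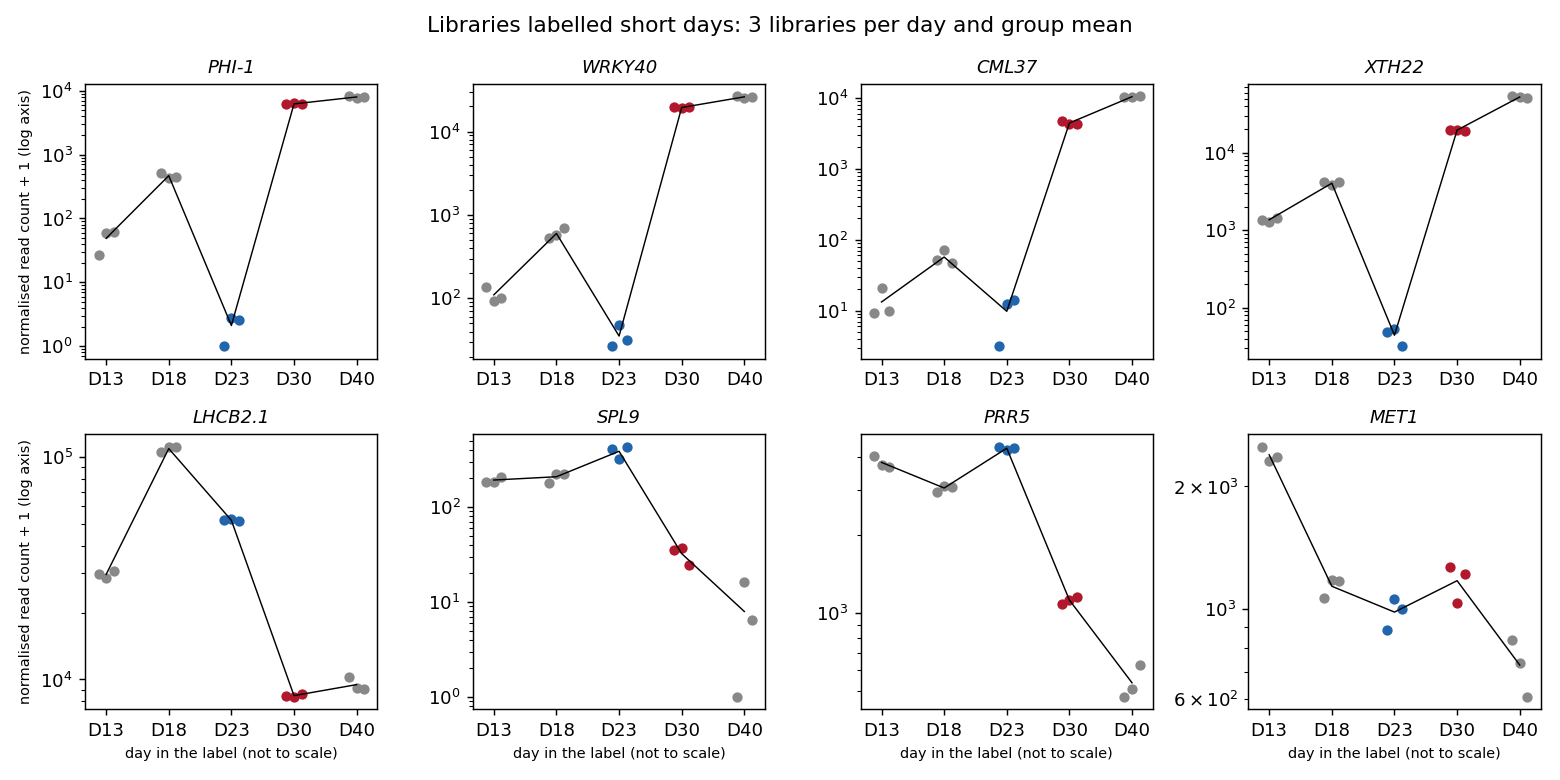
Normalised read count plus 1 on a log axis for 8 genes in the libraries labelled short days at 5 days (x axis, not to scale); points are libraries, 3 per day, D30 red and D23 blue, and lines join group means. XTH22 averaged 19634 at D30 against 43.1 at D23, LHCB2.1 averaged 8459 at D30 against 52002 at D23, and the MET1 groups overlap.

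The 12 highest changes among called genes with a symbol follow. DDF1, a relative of the CBF cold factors, had 4369.6, 4199 and 4354 in the D30 libraries, against 0 reads in every D23 library. That is at least 5422-fold higher, taking a floor of 3 reads over the D23 group (adjusted p = 9.24e-11). MYB15, a factor of lignin and immune genes, had 3209.6, 3351 and 3193 in the D30 libraries, against 0 reads in each of the D23 libraries. It was at least 4092-fold higher by the same floor. JAZ8, a repressor of jasmonate responses, was at 891, 919 and 1093 at D30, again against 0 reads in all D23 libraries, and was at least 1218-fold higher. The floor covers counting error only. CYP94B3, which oxidises and so inactivates jasmonoyl-isoleucine, had 5785, 5809 and 5684 in the D30 libraries, against 11.4, 0 and 8.10 in the D23 libraries, a log2 change of 10.22 ± 1.39 (SE). CML38, another calmodulin-like sensor, changed by 9.94, JAZ7 by 9.87, the ethylene response factor gene ERF13 by 9.87 and RTFL12, of the ROTUNDIFOLIA-like peptides, by 9.53. RRTF1 (9.60), an ERF factor of redox responses, PUB23 (9.43), a ubiquitin ligase that dampens immunity, and LYK2 (9.25), annotated as a protein kinase, overlap genes on the opposite strand. The reads expected from those partners come to 76.97%, 47.4% and 166% of their own reads, so their own level cannot be told apart from the partner's. Of the 12 highest, 11 were called with each triplicate as 1 library, and ERF13 was not (adjusted p = 0.0677).

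Gene families by symbol, picked after their values were seen, are counted next. Of 9 JAZ genes tested, 6 rose and JAZ11 fell (-0.61), and 4 were called higher with each triplicate as 1 library. The count of lower JAZ genes was 0 without D23 replicate 1, D23 replicate 2, D30 replicate 1 or D30 replicate 3. Among the 7 calmodulin-like CML genes 6 rose, 3 of them with each triplicate as 1 library. Of 17 numbered ERF genes, 10 rose and 4 fell: the 4 that fell were ERF9 (-3.21), ERF15 (-2.24), ERF38 (-3.61) and ERF53 (-2.15). Taking each triplicate as 1 library, 2 ERF genes were called higher and 1 lower. WRKY factors, 50 of which were tested, gave 25 that rose and 2 that fell, with 6 higher with each triplicate as 1 library. In the cysteine-rich receptor kinases (CRK) 18 of 36 rose, 4 of them with each triplicate as 1 library. The background for these counts is 16.5% of all genes called higher.

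Genes of salicylic acid and immunity were the next highest list. Of 19 genes tested, 15 rose, against 16.5% of all genes, and the median change was 3.42. With each triplicate as 1 library 3 were called. They held 0.489 to 0.492% of all values at D30, against 0.0922 to 0.0961% at D23. PBS3, which acts in salicylic acid synthesis, had 3067, 2975 and 3209 in the D30 libraries, against 139, 79.3 and 119 in the D23 libraries. The D30 libraries were all above the D23 libraries, with a log2 change of 4.80 ± 0.55 (SE) and an adjusted p of 1.71e-08. PR1, the common marker of salicylic acid signalling, had 14128, 14089 and 13748 in the D30 libraries, against 552, 469 and 604 in the D23 libraries, a log2 change of 4.70 ± 1.33 (SE) (adjusted p = 0.00685). WRKY33, the regulator of the antimicrobial camalexin, had 25157, 26098 and 26483 in the D30 libraries, against 1242, 1113 and 968 in the D23 libraries, and PAD3, the last enzyme of camalexin synthesis, had 1033, 1071 and 994 in the D30 libraries, against 44.1, 25.01 and 58.3 in the D23 libraries. Both were separated between the groups, with log2 changes of 4.55 and 4.65. ICS1, the enzyme that makes the salicylic acid precursor isochorismate, averaged 3336 ± 131 at D30 against 491 ± 18.4 at D23, and NPR3, a salicylic acid receptor, averaged 11121 ± 49.5 at D30 against 904 ± 70.4 at D23. The members that did not pass were PAD4 (0.24), NPR1 (0.33), NIMIN1 (0.68) and LURP1 (0.21).

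The jasmonate and ethylene lists held genes that rose and genes that did not pass the test, beside 16.5% higher and 11.9% lower of all genes. Of 13 jasmonate genes 6 rose and 2 fell, and 2 were called higher with each triplicate as 1 library. JAZ5 had 3632, 3649 and 3501 in the D30 libraries, against 55.5, 69.8 and 55.1 in the D23 libraries, and JAZ1 had 18807, 19145 and 19083 in the D30 libraries, against 725, 668 and 709 in the D23 libraries. Both repressor genes were many times higher in every D30 library, with log2 changes of 5.89 ± 0.94 (SE) and 4.76 ± 0.59 (SE). OPR3, an enzyme of jasmonate synthesis, averaged 16728 ± 381 at D30 against 1508 ± 86.3 at D23, and the factor MYC2 averaged 18584 ± 244 at D30 against 2431 ± 62.5 at D23. The defensin gene PDF1.2 had 1127, 1181 and 1052 in the D30 libraries, against 96.7, 78.5 and 121 in the D23 libraries, a change of 3.51 with an adjusted p of 0.0130. The synthesis genes LOX2 (-0.30), AOS (0.68) and AOC2 (0.15) did not pass the test. The 2 that fell were JAR1 (-0.58), which joins jasmonate to isoleucine, and the receptor gene COI1 (-0.31), and leaving out any 1 of the 6 libraries left 1 of the 2 called. Both lower calls were lost with each triplicate as 1 library. In the ethylene list 6 of 13 rose and EBF2, which marks the ethylene factor EIN3 for breakdown, fell (-1.07), and 1 of the 7, ACS6, was called with each triplicate as 1 library. ACS6, an enzyme making the ethylene precursor, had 18405, 18026 and 18498 in the D30 libraries, against 204, 239.7 and 236 in the D23 libraries. Its groups were far apart, with a log2 change of 6.33 ± 0.60 (SE) and adjusted p of 2.26e-10, or 0.00333 with each triplicate as 1 library.

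Of 16 abscisic acid and dehydration genes 7 fell and 3 rose, with a median of -0.76, beside 11.9% lower and 16.5% higher of all genes. With each triplicate as 1 library 1 was called higher and all 7 lower calls were lost. The gene with the greatest rise was CYP707A3, whose enzyme breaks abscisic acid down. It had 7184, 7204 and 7174 in the D30 libraries, against 12.8, 27.6 and 40.5 in the D23 libraries, a log2 change of 8.15 ± 1.16 (SE) (adjusted p = 9.40e-07), with no overlap. RD22, a dehydration-responsive gene, had 2066, 1899 and 2100.0 in the D30 libraries, against 17569.9, 17519 and 18172 in the D23 libraries, lower in every D30 library, with a change of -3.14 ± 0.92 (SE) and an adjusted p of 0.00896. RD29A averaged 25677 ± 259 at D30 against 71902 ± 363 at D23 (-1.49), the phosphatase gene ABI2 379 ± 63.6 at D30 against 1008 ± 107 at D23 (-1.42), and the factor gene ABF3 1325 ± 99.7 at D30 against 2706 ± 27.2 at D23 (-1.03). The synthesis enzyme gene ABA1 fell (-0.88) and NCED3 did not pass the test (0.21).

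The cold list held changes in both directions. Its 12 tested genes gave 3 that rose, namely the early factors CBF1, CBF2 and ZAT12, and 5 that fell. CBF2 had 1525, 1312 and 1397 in the D30 libraries, against 256, 219 and 211 in the D23 libraries, higher in every D30 library (2.62 ± 0.50 (SE), adjusted p = 8.17e-05). GolS3, an enzyme making the protective sugar galactinol, had 433, 389 and 361 in the D30 libraries, against 3614, 3347 and 3530.4 in the D23 libraries, lower in every D30 library (-3.15 ± 0.46 (SE), adjusted p = 1.55e-06). COR15A and COR15B, chloroplast proteins that protect membranes in the cold, averaged 4749.8 ± 86.6 at D30 against 28927 ± 1075 at D23 and 3820.1 ± 84.5 at D30 against 14023 ± 217 at D23. CBF3, the third of the tandem CBF genes, averaged 363 ± 35.95 at D30 against 1611 ± 69.1 at D23 and fell by 2.15 on the log2 scale, opposite to its neighbours. With each triplicate as 1 library 1 of the list, GolS3, was called lower (adjusted p = 0.0488), and the 3 higher calls were lost.

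Light-harvesting and photosystem genes held more lower calls than any other list. Of 30 tested, 26 fell, 19 of them at least 2-fold, beside 11.9% and 5.09% of all genes, with a median change of -1.08. They held 3.89 to 3.93% of all values at D30, against 8.65 to 8.72% at D23. After quantile normalisation 17 were called lower. With each triplicate as 1 library the limma count was 0, the count at an unadjusted p under 0.05 was 7 and edgeR, run on the 3 libraries a group, called 26. LHCB2.1, an antenna protein of photosystem II, had 8385, 8346 and 8645 in the D30 libraries, against 51930.3, 52609 and 51465 in the D23 libraries. The D30 libraries were all far below the D23 libraries, with a log2 change of -2.62 ± 0.38 (SE) and an adjusted p of 1.39e-06. LHCB2.2 had 4935, 5191 and 4965 in the D30 libraries, against 25035, 25142 and 24746 in the D23 libraries (-2.31 ± 0.39 (SE)), and LHCB1.1 had 12294, 13089 and 12442 in the D30 libraries, against 39598, 39964 and 38943 in the D23 libraries (-1.65 ± 0.46 (SE)). Reads may be split between these near-identical copies, and that sharing was not tested. PSAN, a subunit of photosystem I, had 7521, 7757 and 7070.3 in the D30 libraries, against 21693, 21696 and 21602 in the D23 libraries, lower throughout (-1.54 ± 0.30 (SE)). The antenna genes LHCB1.2 (-0.89), LHCB1.3 (-0.75) and LHCB4.3 (-0.20) and PSBS (-0.53), needed for photoprotection, did not pass the test.

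Most carbon fixation and pigment genes did not pass the test. In the Calvin cycle 1 of 15 genes fell, RPE (-0.57), and the median was -0.28. RBCS1A, the most abundant Rubisco small subunit gene of the list, averaged 96699 ± 1329 at D30 against 114946 ± 1106 at D23, a change of -0.25 that did not pass the test, and RBCS1B changed by 0.36, also short of it. Quantile normalisation called 3 lower, and the RPE call was lost with each triplicate as 1 library. Chlorophyll synthesis had 3 of 18 higher and 3 lower, with a median of -0.07, shares near the 16.5% higher and 11.9% lower of all genes. HEMA1, the enzyme that commits glutamate to tetrapyrroles, had 7290.1, 6725 and 7315 in the D30 libraries, against 3032, 3265 and 3299.6 in the D23 libraries, higher in every D30 library (1.15 ± 0.20 (SE), adjusted p = 3.20e-05). The next steps GSA1 (0.82) and HEMB1 (0.78) rose as well. At the chlorophyll end, CAO, which makes chlorophyll b, had 1701, 1506 and 1673 in the D30 libraries, against 3690.1, 3651 and 3400.1 in the D23 libraries, lower in every D30 library (-1.14 ± 0.15 (SE), adjusted p = 2.40e-07). CHLH (-0.80), a subunit of magnesium chelatase, and its activator GUN4 (-1.97) fell too, though 49.3% of the GUN4 reads are expected to stem from an antiparallel neighbour. CAO and GUN4 were called also with each triplicate as 1 library (adjusted p of 0.0309 and 0.0487), and the calls of HEMA1, GSA1, HEMB1 and CHLH were lost.

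Of 23 senescence genes tested 13 rose, beside 16.5% of all genes, with a median of 1.67, and 3 were called with each triplicate as 1 library. WRKY53, an early senescence factor, had 9114, 9226 and 8814 in the D30 libraries, against 176, 129 and 146 in the D23 libraries, far higher in every D30 library (5.91 ± 0.65 (SE), adjusted p = 6.98e-09). SAG21 had 9734, 10062 and 9308 in the D30 libraries, against 892, 898 and 799 in the D23 libraries, also without overlap (3.49 ± 0.47 (SE)). ANAC055 and WRKY75 changed by 4.39 and 4.83, the second on D23 values of at most 8.10. The NAC factors that drive late senescence did not pass the limma test: ORE1 averaged 284 ± 31.2 at D30 against 859 ± 15.3 at D23 (-1.60; called lower by edgeR, adjusted p = 0.0154), NAP averaged 467 ± 51.2 at D30 against 903 ± 74.5 at D23 (-0.95) and ORS1 changed by -0.76. SAG12, the protease gene that marks late senescence, was too low to be tested. WRKY53, WRKY70, WRKY75 and others of the list are also genes of immunity. Of 8 chlorophyll breakdown genes 1 fell, NOL (-0.63 ± 0.16 (SE), adjusted p = 0.00248), and quantile normalisation called 3. That call was lost with each triplicate as 1 library. The dechelatase gene SGR1 (-0.29), PPH (-0.09) and PAO (-0.48) did not pass the test.

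Among 12 autophagy genes 1 rose and 2 fell, with a median of -0.15, and all 3 calls were lost with each triplicate as 1 library. The autophagy shares called in the main fit are near the 16.5% higher and 11.9% lower of all genes. ATG8F, a protein that coats the autophagosome, had 3871, 3422 and 3653 in the D30 libraries, against 5257, 5280.4 and 5426 in the D23 libraries, lower in every D30 library (-0.55 ± 0.14 (SE), adjusted p = 0.00231). ATG8A also fell (-0.51), a call that was lost without any 1 of the 6 libraries (adjusted p of 0.0623 to 0.144). The cargo receptor gene NBR1 rose by 0.46 as deposited and was not called after quantile normalisation (adjusted p = 0.0655). In nitrogen remobilisation 3 of 13 rose, beside 16.5% of all genes, and the count was 1 without D30 replicate 2 and 1 with each triplicate as 1 library. ASN1, the dark-inducible asparagine synthetase, had 62.4, 94.8 and 85.97 in the D30 libraries, against 0, 7.76 and 0 in the D23 libraries, higher in every D30 library (5.29 ± 0.71 (SE), adjusted p = 3.31e-07). GLN2, the chloroplast glutamine synthetase, had 11636, 11745 and 11991 in the D30 libraries, against 18287, 17772 and 18353 in the D23 libraries, lower throughout (-0.62 ± 0.14 (SE)). The dark and sugar-starvation list had 5 of 15 higher, 2 of them with each triplicate as 1 library. BT2, a scaffold protein repressed by sugar, had 1397, 1279 and 1313 in the D30 libraries, against 19.2, 20.7 and 27.5 in the D23 libraries, without overlap (5.84 ± 0.63 (SE), adjusted p = 3.94e-09). EXL2 changed by 3.90 and DIN10 by 1.59. KMD4, an F-box gene of cytokinin signalling, changed by -2.36, but 90.1% of its reads are expected to stem from an antiparallel neighbour. Of 10 sugar transporters, STP4 alone rose (0.95), a call lost with each triplicate as 1 library, as were those of GLN2 and KMD4.

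Of 12 SAUR genes tested, a family induced by auxin and picked after its values were seen, 9 fell, 6 of them with each triplicate as 1 library. SAUR24 had 4.28, 3.03 and 6.68 in the D30 libraries, against 132, 182 and 144 in the D23 libraries, lower in every D30 library (-4.80 ± 0.42 (SE), adjusted p = 6.41e-11). SAUR63 had 6.84, 4.03 and 1.67 in the D30 libraries, against 103, 112 and 85.9 in the D23 libraries (-4.41 ± 0.65 (SE)), with 24.99% of its reads expected to stem from an antiparallel neighbour. Only 1 SAUR gene was called lower when genes had to reach 100 in 3 libraries, because most of the family lies under that level. The list of expansins and XTH enzymes, which loosen and remodel the wall, had 6 of 14 lower and 2 higher, and 1 in each direction with each triplicate as 1 library. Its summed share of values was 0.123 to 0.125% at D30, against 0.0312 to 0.0326% at D23. That sum is weighted to genes with high counts and includes XTH22, an immediate-early gene with the largest rise of the list (8.83). Most members went the other way, with 9 of 14 changes below 0 and a median of -0.96. EXPA8 had 51.3, 78.7 and 105 in the D30 libraries, against 518, 445 and 558 in the D23 libraries, and EXPA11 had 6.84, 29.2 and 28.4 in the D30 libraries, against 247, 276 and 194 in the D23 libraries. Both expansins were lower in every D30 library (-2.73 ± 0.53 (SE) and -3.64 ± 0.78 (SE)). EXPA3 had 0, 8.07 and 0 in the D30 libraries, against 25.6, 39.7 and 35.6 in the D23 libraries, and it was called also with each triplicate as 1 library (adjusted p = 0.00850). The 2 that rose were XTH22 and XTH24 (1.84).

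Among 10 cuticular wax genes 7 fell, with a median of -1.43, and 1 rose. All 7 lower calls were lost with each triplicate as 1 library. CER1, which makes wax alkanes, had 34.2, 55.5 and 48.4 in the D30 libraries, against 479, 475 and 409 in the D23 libraries, lower in every D30 library (-3.30 ± 0.60 (SE), adjusted p = 4.61e-05). WSD1, a wax ester synthase, had 0 reads in the D30 libraries, against 15.6, 12.1 and 18.6 in the D23 libraries, at least 17.2-fold lower by the floor of 3 reads. LTPG1, a lipid transfer protein, had 151, 162 and 187 in the D30 libraries, against 619, 534 and 522 in the D23 libraries, lower throughout (-1.74 ± 0.45 (SE)). The elongase gene CER6 averaged 2867 ± 84.3 at D30 against 7531 ± 169.5 at D23 and the transporter gene CER5 1172 ± 112 at D30 against 2988 ± 71.3 at D23. The gene that rose was MYB30 (1.45), a factor of both wax and immune genes, called also with each triplicate as 1 library. KCS2, an elongase of very long chain fatty acids, had the lowest change of all symbol-bearing genes called with a mean of 100 or more. It had 0, 9.08 and 0 in the D30 libraries, against 109, 92.3 and 159.6 in the D23 libraries (-5.77 ± 0.83 (SE)), and 62.96% of its reads are expected to stem from an antiparallel neighbour. Of 14 aquaporin genes, which encode water channels, 7 fell, or 4 without D30 replicate 1, and all 7 calls were lost with each triplicate as 1 library. PIP2;2 had 815, 831 and 924 in the D30 libraries, against 2748, 2595 and 2503 in the D23 libraries and TIP2;2 had 2022, 2086 and 2003 in the D30 libraries, against 5638, 5537 and 5872 in the D23 libraries, both lower in every D30 library (-1.61 ± 0.48 (SE) and -1.48 ± 0.42 (SE)).

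Further genes among the 12 lowest are regulators. SPL9, a factor of the age pathway that miR156 restrains, had 34.2, 36.3 and 23.4 in the D30 libraries, against 404, 322 and 430.1 in the D23 libraries, with no overlap (-3.59 ± 0.59 (SE), adjusted p = 9.51e-06). TINY2, an ERF-type factor, had 13.7, 6.05 and 1.67 in the D30 libraries, against 117, 145 and 110.1 in the D23 libraries, lower throughout (-4.25 ± 0.71 (SE)). OFP16, of the OVATE family, MAKR6, a membrane-associated kinase regulator, and CYP71A24, a cytochrome P450, changed by -3.83, -3.81 and -3.87. TPS03, a terpene synthase, changed by -4.51, NEET, an iron-sulphur protein, by -3.59, and ATCSLA09, a glucomannan synthase, by -3.74. Of 10 leaf growth regulators 3 fell: ANT (-3.02), which prolongs cell division in organs, GRF1 (-1.62) and TCP4 (-0.91). GRF1 had 152, 179.5 and 159 in the D30 libraries, against 457, 559 and 501 in the D23 libraries, lower in every D30 library (adjusted p = 4.37e-06). Of these 3, 1 was called lower with each triplicate as 1 library. In the cytokinin list 5 of 9 fell and 2 rose, and with each triplicate as 1 library 1 was called higher and the 5 lower calls were lost. ARR9, a type-A response regulator, had 47.9, 86.7 and 80.1 in the D30 libraries, against 379.7, 516 and 467 in the D23 libraries (-2.68 ± 0.55 (SE)). ARR5, of the same class, had 746, 619 and 654 in the D30 libraries, against 132, 155 and 227 in the D23 libraries, higher in every D30 library (2.003 ± 0.29 (SE)). CKX4, which degrades cytokinin, had 601, 669.7 and 652 in the D30 libraries, against 118, 80.2 and 104 in the D23 libraries, also higher (2.67 ± 0.45 (SE)).

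DNA methylation in plants is kept by MET1 at CG sites, by CMT3 and CMT2 at non-CG sites and by the remodeller DDM1, and the title of the series names its loss. MET1 had 1269, 1031 and 1216 in the D30 libraries, against 887, 1055 and 1001 in the D23 libraries, and the groups overlapped. Its log2 change was 0.25 ± 0.24 (SE), with a 95% interval of -0.23 to 0.74 and an adjusted p of 0.478. DDM1 had 553, 522 and 558 in the D30 libraries, against 597, 515 and 513 in the D23 libraries, also overlapping, with a change of 0.01 ± 0.41 (SE) and an interval of -0.81 to 0.83. CMT3 had 1844, 1599 and 1651 in the D30 libraries, against 968, 1031 and 982 in the D23 libraries, higher in every D30 library (0.77 ± 0.29 (SE), adjusted p = 0.0434). That call was lost without any 1 of the 6 libraries (adjusted p of 0.0733 to 0.124). CMT2 changed by 0.68 ± 0.24 (SE) (adjusted p = 0.0277) and kept its call only without D23 replicate 1, of the 6 libraries left out in turn (range 0.0171 to 0.144). HOG1, which recycles the methyl donor, rose by 0.63 and was not called after quantile normalisation (adjusted p = 0.0749). In all 3 of 11 maintenance genes rose, and all 3 calls were lost with each triplicate as 1 library. ROS1, which removes methylated cytosine, had 2843, 2787 and 2650.0 in the D30 libraries, against 2786, 2795 and 2799 in the D23 libraries, overlapping, with a change of -0.02 ± 0.30 (SE) and an interval of -0.62 to 0.59. DML3, a related glycosylase, had 139, 176 and 211 in the D30 libraries, against 321, 356 and 388 in the D23 libraries, lower in every D30 library (-1.03 ± 0.25 (SE), adjusted p = 0.00152), a call lost with each triplicate as 1 library. Of 6 demethylation genes tested 1 rose and 1, DML3, fell, beside 16.5% higher and 11.9% lower of all genes. The higher call was lost with TMM factors, after quantile normalisation, and without D30 replicate 1 or D30 replicate 2. Of 19 genes of RNA-directed DNA methylation, limma called 0, with 0 at an unadjusted p under 0.05, and edgeR called 0.

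Of 19 replication genes 2 rose and 1 fell, with a median of 0.37, and all 3 calls were lost with each triplicate as 1 library. The replication shares called in the main fit are below the 16.5% higher and 11.9% lower of all genes. TSO2, a subunit of ribonucleotide reductase, had 4471, 4111 and 4248 in the D30 libraries, against 2364, 2340.2 and 2171 in the D23 libraries, higher in every D30 library (0.90 ± 0.25 (SE), adjusted p = 0.00560). MCM2, of the replicative helicase, changed by 0.73 ± 0.27 (SE), and its call was lost without any 1 of the 6 libraries (adjusted p of 0.0537 to 0.134) and with a replicate block (adjusted p = 0.0515). CDC6, which loads that helicase, had 265, 284 and 277 in the D30 libraries, against 664, 710.5 and 695 in the D23 libraries, lower in every D30 library (-1.32 ± 0.42 (SE)). Mitotic genes gave 1 of 22 lower, AUR2, whose call was lost without D23 replicate 1, D23 replicate 2 or D30 replicate 3 (adjusted p of 0.0678, 0.0924 and 0.1997), with edgeR (0.0605), with a pseudocount of 0.5 (0.0561) and with each triplicate as 1 library (0.562). CYCB1;1, a mitotic cyclin, averaged 112 ± 10.6 at D30 against 35.4 ± 13.9 at D23 and did not pass the test. In the list of CXC proteins and the DREAM complex, a repressor of cell cycle genes, 1 of 18 rose and 1 fell, both calls lost with each triplicate as 1 library. TCX6 had 2040.2, 2104 and 1916 in the D30 libraries, against 381, 392 and 425 in the D23 libraries, higher in every D30 library (2.34 ± 0.67 (SE), adjusted p = 0.00703). TSO1 had 445, 403 and 403 in the D30 libraries, against 705, 641 and 726 in the D23 libraries, lower throughout (-0.73 ± 0.22 (SE)).

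Clock genes change with the hour of harvest, which the labels do not give. The background for their counts is 11.9% of all genes called lower and 16.5% higher. Of 12 tested 5 fell and 1 rose, with 2 called lower and the higher call lost with each triplicate as 1 library. PRR5, expressed in the afternoon, had 1087, 1127 and 1150.1 in the D30 libraries, against 4393, 4281 and 4334 in the D23 libraries, and PRR9, expressed in the morning, had 346, 259 and 255 in the D30 libraries, against 929, 962 and 869.9 in the D23 libraries. Both were lower in every D30 library, with changes of -1.95 ± 0.23 (SE) and -1.69 ± 0.22 (SE) and adjusted p of 2.49e-08 and 1.73e-07. The morning factor gene CCA1 had 491, 501 and 507 in the D30 libraries, against 1254, 1199 and 1303 in the D23 libraries, lower as well (-1.32 ± 0.33 (SE)), while LHY, its partner, averaged 194 ± 23.8 at D30 against 273 ± 45.9 at D23 and did not pass the test. The evening gene TOC1 had 6260.2, 6294 and 6378 in the D30 libraries, against 4098, 3914 and 4014 in the D23 libraries (0.65 ± 0.11 (SE)) and was not called after quantile normalisation (adjusted p = 0.134). GI, another evening gene, averaged 7699 ± 89.9 at D30 against 6786 ± 211 at D23 and did not pass. The part of harvest time in any result was not tested.

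In the flowering list SPL9 and SOC1 fell and TEM1 rose, of 12 tested, and 1 call, lower, was left with each triplicate as 1 library. The flowering shares called in the main fit are near the 16.5% higher and 11.9% lower of all genes, also the background for the glucosinolate counts. SOC1, a factor that promotes flowering, had 2298, 2238 and 2204 in the D30 libraries, against 3357, 3466 and 3454 in the D23 libraries, lower throughout (-0.61 ± 0.18 (SE)). TEM1, which represses FT, had 2307, 2352 and 2353 in the D30 libraries, against 851, 852 and 808 in the D23 libraries, higher throughout (1.48 ± 0.27 (SE), adjusted p = 6.30e-05). FT had 32.5, 12.1 and 13.4 in the D30 libraries, against 27.02, 82.8 and 30.8 in the D23 libraries, overlapping (adjusted p = 0.396). Among 14 glucosinolate genes the 4 that rose belong to the tryptophan-derived indole branch, namely MYB51 (3.44), CYP79B2 (1.76), CYP79B3 (1.63) and CYP83B1 (1.25). The 3 that fell were the factor genes MYB28 (-1.70) and MYB29 (-2.19) of the methionine-derived branch and MYB34 (-1.84) of the indole branch. Leaving out any 1 of the 6 libraries left 1 of the 3 called lower, and all 7 glucosinolate calls were lost with each triplicate as 1 library. MYB51 had 5436, 5239 and 5179 in the D30 libraries, against 494, 535 and 434 in the D23 libraries, higher in every D30 library (3.44 ± 0.75 (SE)). Of 11 flavonoid genes limma called 0, with 1 at an unadjusted p under 0.05, and edgeR called 0; chalcone synthase (CHS) averaged 549 ± 10.997 at D30 against 659 ± 19.1 at D23.

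In mineral nutrition 4 of 12 genes rose, calls that were lost with each triplicate as 1 library. The background here and for heat shock genes is 16.5% of all genes called higher and 11.9% lower. In the mineral list 5 of 12 changes were below 0. Its summed share of values was lower at D30, 0.0863 to 0.0887%, against 0.133 to 0.135% at D23. PHT1;4, a phosphate transporter, had 136, 148 and 137 in the D30 libraries, against 12.8, 27.6 and 30.8 in the D23 libraries, higher in every D30 library (2.60 ± 0.46 (SE), adjusted p = 2.90e-05). CSD1, a copper and zinc superoxide dismutase, had 1140.3, 1272 and 1170.2 in the D30 libraries, against 651, 679 and 607 in the D23 libraries, also higher (0.89 ± 0.15 (SE)). PAP17 rose by 1.77, with 37.2% of its reads expected to stem from an antiparallel neighbour. Of 7 heat shock genes 2 rose and 2 fell, and these 4 calls were lost likewise. HSFA2, a heat shock factor, had 200.2, 131 and 145 in the D30 libraries, against 9.24, 0.862 and 9.72 in the D23 libraries, higher throughout (4.74 ± 1.04 (SE)). The chaperone gene HSP70-5 had 94.95, 114 and 75.95 in the D30 libraries, against 195, 219 and 168 in the D23 libraries, lower throughout (-1.03 ± 0.24 (SE)).

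Some markers of cell types that a leaf sample can hold fell, beside 11.9% of all genes, and every one of these calls was lost with each triplicate as 1 library. In bulk tissue, fewer cells of a type and less RNA per cell cannot be told apart. Of 6 guard cell markers 2 fell, MYB60 (-1.18) and SLAC1 (-1.28, with 55.5% of reads expected to stem from an antiparallel neighbour), and their summed share of values was 0.00781 to 0.00817% at D30, against 0.00983 to 0.00991% at D23. Of 10 vascular markers 2 fell, SEOR1 (-1.62) and SULTR2;1 (-1.07), with shares of 0.0712 to 0.0725% at D30, against 0.0966 to 0.0986% at D23. TGG1, the myrosinase of myrosin and guard cells, had 3045, 2848 and 3079.9 in the D30 libraries, against 7608, 7844 and 7547 in the D23 libraries, lower throughout (-1.36 ± 0.28 (SE)). Of 4 myrosin cell and trichome markers tested it was the one called. All 10 vascular and all 4 myrosin and trichome changes were below 0. The meristem markers STM, KNAT1, WUS and CLV3 were all too low to be tested, as were 7 of 9 stomatal lineage markers. Root markers left 2 of 6, of which SCR fell (-0.51, adjusted p = 0.0135), and flower and seed markers 2 of 7 high enough to test. The part of cell type makeup in the results was not tested.

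**Figure D3:**
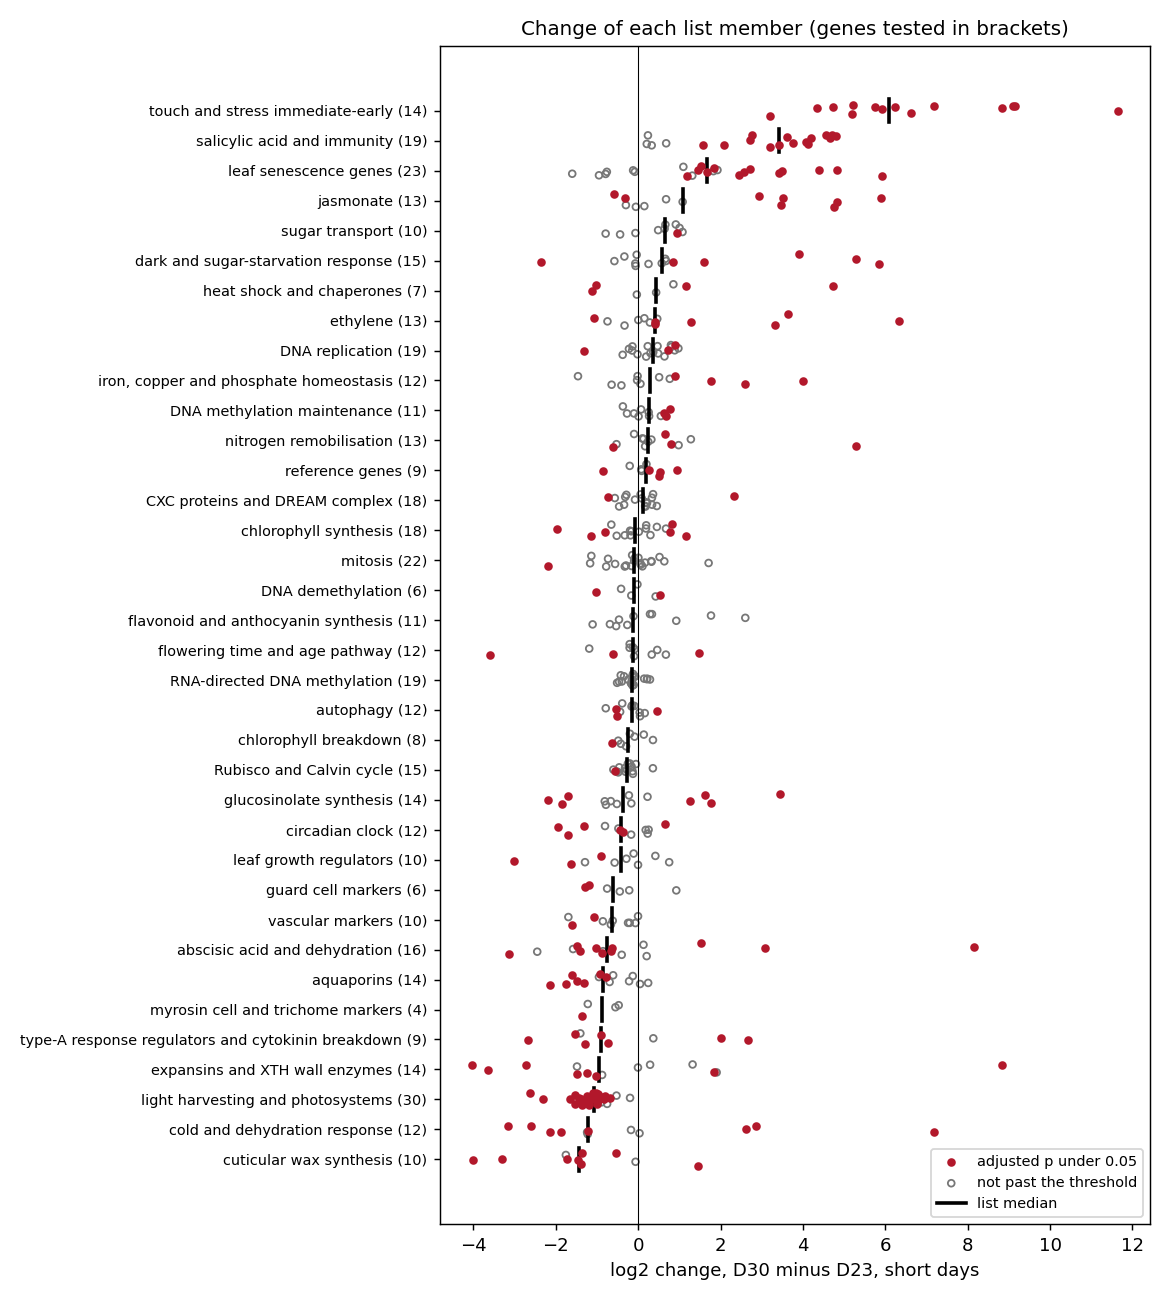
Log2 change, D30 minus D23, in the short-day libraries for each tested member of the lists with 4 or more tested genes; red points passed the adjusted p threshold, grey rings did not, and black bars are list medians. The immediate-early list sits highest (median 6.09) and cuticular wax synthesis lowest (median -1.43).

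The D30 change was next set against the same change in long days, with which it shares no library. The difference of the 2 changes was called for 6136 genes (29.8%), 3603 with the higher change in short days (17.5%) and 2533 with the lower (12.3%). With each short-day triplicate as 1 library the count was 1548. Of the 5849 genes called in short days, 2741 also differed from long days, or 399 of 966 with each triplicate as 1 library. In long days 9103 of the same 20602 genes were called (44.2%). These genes were kept by their short-day values, so genes present only in long days are not counted. A total of 3175 genes were called in both, and 628 of these moved in opposite directions with a called difference, 378 higher in short days but lower in long days and 250 the reverse. Taking each triplicate as 1 library, 479 were called in both and 66 moved in opposite directions with a called difference, 50 higher in short days but lower in long days and 16 the reverse.

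All 14 immediate-early genes had a higher change in short days than in long days, 6 of them with each triplicate as 1 library. Their median change was 6.09 in short days and 0.99 in long days. Of all genes, 17.5% had the higher change in short days and 12.3% the lower. WRKY40 changed by 9.15 in short days and 0.27 in long days, a difference of 8.87 ± 1.31 (SE, adjusted p = 2.62e-06). ACS6 changed by 6.33 in short days and -1.17 in long days (adjusted p of the difference 2.35e-08). In the immunity list 8 of 19 had the higher change in short days and 1, PR1, the lower, or 1 higher with each triplicate as 1 library, PR1 no longer being called. PR1 changed by 4.70 in short days and 10.70 in long days.

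Genes of pigment, division and methylation also differed, with medians near 0 in short days and well below 0 in long days. The background is 29.8% of all genes with a called difference. Among the lists of this paragraph only light harvesting, the last, had a share below that. Chlorophyll synthesis had a median change of -0.07 in short days and -2.18 in long days, and 16 of 18 genes differed, 11 of them with each triplicate as 1 library. HEMA1 changed by 1.15 in short days and -2.64 in long days (difference 3.79 ± 0.29, SE, adjusted p = 7.98e-12). The Calvin cycle median was -0.28 in short days and -1.84 in long days, with 11 of 15 genes differing, calls that were all lost with each triplicate as 1 library. Replication medians were 0.37 in short days and -1.88 in long days, mitosis medians -0.09 in short days and -2.97 in long days, and methylation maintenance medians 0.25 in short days and -1.66 in long days. The differences were called for 14 of 19, 13 of 22 and 7 of 11 genes of these lists, or 3, 1 and 4 with each triplicate as 1 library. MET1 changed by 0.25 in short days and -2.23 in long days (adjusted p of the difference 6.02e-07), and DDM1 by 0.01 in short days and -2.52 in long days (8.44e-04). The levels of DDM1 differed already at D23, with 513 to 597 in short days against 136 to 168 in long days. In long days its D30 values were just 16.2 to 38.97. Light-harvesting genes were closer, with medians of -1.08 in short days and -1.78 in long days and 7 of 30 genes differing, 1 with each triplicate as 1 library.

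Autophagy genes had a median change of -0.15 in short days and 1.16 in long days, and 10 of 12 had the lower change in short days, 4 with each triplicate as 1 library. ATG8F changed by -0.55 in short days and 1.19 in long days (adjusted p of the difference 2.35e-08). The background for the counts of this paragraph is 12.3% of all genes with the lower change in short days and 17.5% with the higher. For chlorophyll breakdown the medians were -0.25 in short days and 1.31 in long days, with 6 of 8 lower in short days, 2 with each triplicate as 1 library. In the senescence list 9 of 23 genes had the lower change in short days and 3 the higher, and all 12 calls were lost with each triplicate as 1 library. ORE1 changed by -1.60 in short days and 2.97 in long days, and SAG113, a phosphatase gene, by -0.12 in short days and 4.61 in long days. WRKY70, by contrast, changed by 1.45 in short days and -0.78 in long days. SOC1 and the chaperone gene DNAJ20 also moved in opposite directions, by -0.61 and -1.11 in short days and by 0.75 and 1.29 in long days.

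**Figure D4:**
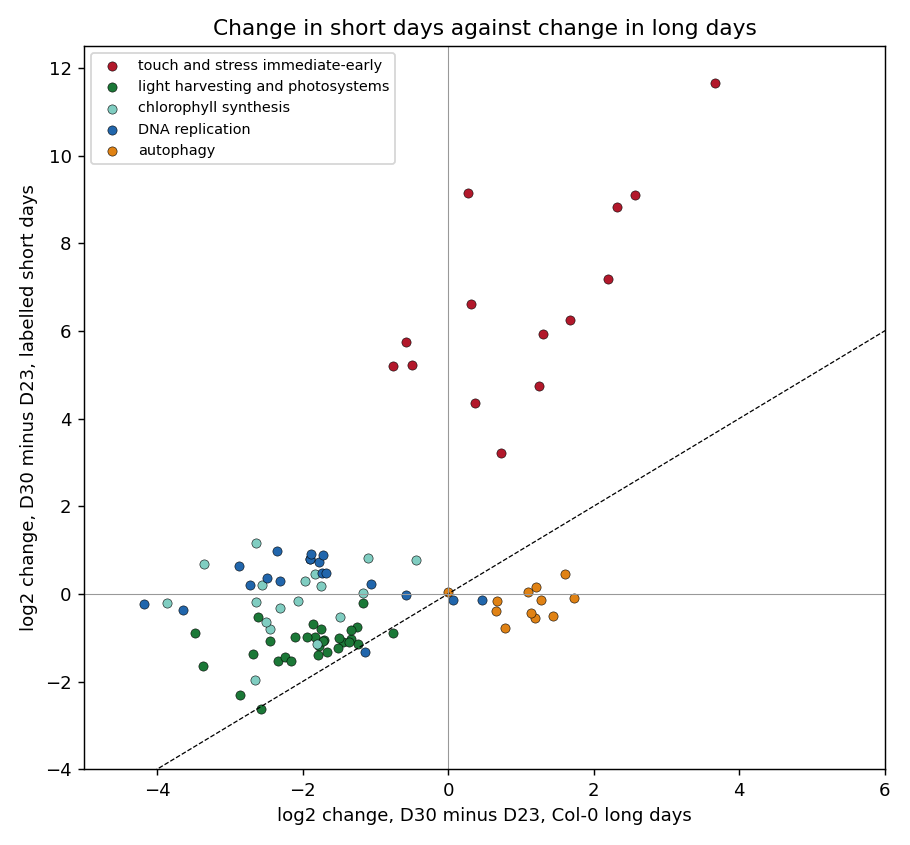
Log2 change of D30 minus D23 in the short-day libraries (y axis) against the same change in long-day Col-0 libraries (x axis) for the tested members of 5 lists; each point is a gene and the dashed line marks equal change. Immediate-early genes lie far above the line (medians 6.09 in short days and 0.99 in long days), autophagy genes below it (-0.15 in short days and 1.16 in long days), and replication genes mostly to its left (0.37 in short days and -1.88 in long days).

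Against the change in the libraries labelled tcx5/6, 4201 genes differed (20.4%), 2516 with the higher change in short days (12.2%) and 1685 with the lower (8.18%), or 670 with each short-day triplicate as 1 library. Of the 5849 genes called in short days, 2412 were among them, or 370 of 966 with each triplicate as 1 library. The immediate-early median was 6.09 in short-day Col-0 and 0.88 in tcx5/6, with 13 of 14 genes higher in short days, 4 with each triplicate as 1 library. XTH22 changed by 8.83 in short-day Col-0 and -1.28 in tcx5/6 (adjusted p of the difference 4.01e-10). Chlorophyll synthesis had 12 of 18 genes with the higher change in short days, and autophagy 8 of 12 with the lower, or 3 and 3 with each triplicate as 1 library. Fewer genes of division and methylation differed from tcx5/6 than from long-day Col-0. In tcx5/6 the medians were -0.35 for replication, -1.79 for mitosis and -1.09 for methylation maintenance. The differences were called for 1 of 19, 4 of 22 and 3 of 11 genes of these lists, beside 20.4% of all genes. For light-harvesting genes the medians were -1.08 in short-day Col-0 and -1.32 in tcx5/6, and limma called 0 differences there, with 3 at an unadjusted p under 0.05, while edgeR called 0. The tcx5/6 libraries were more spread than long-day Col-0 at both days, so few called differences from tcx5/6 do not show equal changes. Day length and genotype both differ between short-day Col-0 and tcx5/6 libraries and cannot be told apart in this difference.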

How the data were processed

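Polyadenylated RNA of the first true leaves was sequenced by a non-stranded Illumina protocol after isolation with an RNeasy plant kit, per the labels. Per the submitters' processing notes, reads passed through tools that include Trim Galore 0.6.6 and cutadapt. The notes also name DESeq2 1.40.1, HTSeq 2.0 and the aligner STAR 2.7.1a. The deposited table holds a normalised signal for 37336 genes, that is read counts per gene divided by 1 size factor per library; 5 entries that name no gene were left out, and reads in no gene were 45.95 to 48.2% of reads counted. Dividing each value by what 1 read is worth in its library gave whole reads for 100% of values (tolerance 0.01), and edgeR 4.0.16 on those reads was the count test run as an alternative. It called 6186 genes. The sources used here name no genome build, so neither positions nor sequences are printed. The TAIR10.1 RefSeq annotation, used for names and overlaps only, matched 37051 of the genes.

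Genes were kept at 10 or more in at least 3 of the 6 libraries. Tests used R 4.3.3 with limma 3.58.1 and its mean-variance trend on values logged as log2(value + 1), 1 mean per group, 15 groups in 1 fit (30 residual degrees of freedom), two-sided, and Benjamini-Hochberg adjustment over 20602 genes. Contrasts were D30 minus D23 in short days, and that change minus the same change in long days or in tcx5/6. On simulated counts with known changes at this size, the test was checked before use, and no error rate from that check is given here. Those counts had independent replicates and the same spread trend in all groups. The check therefore cannot tell how the test behaves if the short-day triplicates are repeats of 1 sample. Strand counting is not stated. Of the genes kept, 6812 overlap a gene on the opposite strand, and for named genes among them the text gives the part of their reads that such an antiparallel neighbour would supply. That part rests on the mean of the 6 libraries and assumes even coverage along the neighbour. The 95% intervals of log2 changes come from the limma fit. The floor of 3 reads over a group covers counting error only, since without molecular identifiers PCR copies count as separate reads.

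Genes are named by a rule: the 12 highest and 12 lowest log2 changes among called genes with a symbol and a group mean of 100 or more, in each list the called members with the greatest absolute change, at most 4,, and TCX5, TCX6, MET1, CMT3, DDM1, ROS1, FT and QQS. Other list members were named after their values were seen. The groups, the 40 lists and the rule were chosen with earlier results of these data known. Lists are described by counts and medians, with no test of their own. Alternatives were other pseudocounts, filters, scalings, fits and left-out libraries. Planned counts of promoter motifs were not run.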

Additional observations from a re-analysis of the deposited data

Results flagged for a closer look

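The change at D30 relative to D23 differed between the short-day libraries and long-day Col-0 for 6136 genes, and between the short-day libraries and those labelled tcx5/6 for 4201 genes; both differences were tested, as the contrast of both changes. All 14 immediate-early genes tested differed from long days in that contrast, 6 of them with each short-day triplicate as 1 library. Of the genes that differed from long days, 628 genes were called in opposite directions in short and long days with a called difference, 66 with each triplicate as 1 library. Their causes were not tested. Levels of TCX5, QQS and FT in the short-day libraries are not accounted for by the labels, as given above. CMT3 and DDM1 lay higher in every library labelled short days than in any long-day Col-0 library. TCX6 did so in the short-day libraries of D30, at 1916 to 2104. In tcx5/6 libraries TCX5 lay at 231 to 522, against 271 to 525 in long-day Col-0. FT had 3 or more reads in 2 of 15 tcx5/6 libraries. Whether any label is wrong was not tested. The spread of the short-day triplicates beyond counting noise grew far less with read depth than in long days.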

How the results depend on the processing

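The number of genes called depends mostly on how the spread is estimated. Fits of only the 6 libraries called 11639 (6147 higher, 5492 lower), with a replicate block 11610 (6136 higher, 5474 lower), and the 5 short-day groups 9083 (5109 higher, 3974 lower). Each short-day triplicate as 1 library gave 966 (715 higher, 251 lower) for the D30 change, 1548 (1018 higher, 530 lower) for the difference from long days and 670 (470 higher, 200 lower) for the difference from tcx5/6. Quantile normalisation raised the lower calls to 4957, 4174 and 3430 in the same order. Leaving out 1 library gave 4718 to 4815 calls (2832 to 2920 higher, 1864 to 1904 lower), 5212 to 5735 for the difference from long days (3118 to 3412 higher, 2094 to 2323 lower) and 3481 to 4107 for that from tcx5/6 (2117 to 2510 higher, 1364 to 1597 lower). Other pseudocounts, filters, TMM factors and edgeR gave 5339 to 6612 calls for the D30 change, and 4191 of 13790 genes were called without those overlapping a gene on the opposite strand.

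The replicate numbers did not pair the libraries: deviations of same-numbered libraries from their group means correlated at 0.0150, 8.76e-04 and 0.0267. A replicate block gave 5788 calls, and of the 133 named genes only MCM2 crossed the threshold with it in the D30 change. Signs reversed for genes near 0: DDM1 under quantile normalisation (-0.137), TMM factors (-0.0296), and without 1 library at a time (range -0.0277 to 0.0824); ROS1 without 1 library at a time (-0.0397 to 0.0109). Differences reversed were GLN2 against long days (-0.157) and EF1A (-0.00140) and ROS1 (-0.209) against tcx5/6, all under quantile normalisation, and, leaving out 1 library at a time, ROS1 (-0.0529 to 0.261) and TCX6 (-0.119 to 1.38) against tcx5/6. The cause was not tested. Of 133 named genes tested, 88 lost their call with each triplicate as 1 library.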

Other observations

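Genes often used to normalise qPCR were not level between the days. Of 9 tested 4 rose and 1 fell as deposited, 2 rose and 1 fell with TMM factors, and 1 rose and 2 fell after quantile normalisation; leaving out 1 library left 2 that rose, and 1 rise and no fall was left with each triplicate as 1 library. ACT2, an actin gene, had 17256, 18035 and 17933 in the D30 libraries, against 9236, 9204 and 9319 in the D23 libraries, higher in every D30 library and called higher under each of these scalings (0.94 ± 0.10 (SE), adjusted p = 7.60e-09). UBQ10, a polyubiquitin gene, had 32358, 32355 and 31974 in the D30 libraries, against 59506, 58376 and 58295 in the D23 libraries, lower in every D30 library (-0.87 ± 0.18 (SE), adjusted p = 2.25e-04), with a log2 change of 1.03 in long days (adjusted p of the difference 4.14e-07). PP2AA3 (0.07), SAND (0.08), TIP41 (0.20) and UBC9 (-0.21) did not pass the test as deposited.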
